A study of Mus musculus with 6 samples.

Results

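The Hedgehog pathway genes Dhh, Ihh, Shh, Ptch1, Smo, Gli1, Gli2, Gli3 and Hhip were examined by RNA sequencing in mouse testes of embryonic stage E12.5, sequenced whole. These 9 genes were chosen by symbol as the ligands, receptors and transcription factors of the pathway, and all 9 were found among the 24470 genes of the count table. The control group (3 samples) carried Ppp1r3c f/f, that is, both alleles of Ppp1r3c floxed and no Cre. The cKO (conditional knockout) group (3 samples) carried Sf1-Cre together with Ppp1r3c f/f, so the floxed alleles were shared by all samples and the transgene was present in the cKO group alone. An effect of the Cre transgene and an effect of the deletion cannot be told apart in this design. The Cre is driven by sequences of Nr5a1 (Sf1), which are active in somatic gonadal cells, and the product of Ppp1r3c directs protein phosphatase 1 to glycogen and favors its synthesis. Every sample pooled 2 gonad pairs, and the sources used here do not tie the samples to litters, so the p-values measure the spread between these pools.

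Hedgehog ligands are secreted proteins that bind the receptor PTCH1 on neighboring cells. Binding relieves the inhibition of the membrane protein SMO, and the signal then passes through the primary cilium to the GLI transcription factors. In the fetal testis, Desert hedgehog (Dhh) is made by Sertoli cells, and interstitial cells respond to it. In those cells Gli1, Ptch1 and Hhip are themselves induced by the signal and serve as its readout, and the pathway is known for its role in fetal Leydig cell differentiation. The question addressed here was whether the RNA of the ligand and of its response genes differed between cKO and control testes. Whether the responding cells had lost Ppp1r3c as well as the Sertoli cells was not tested.

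Library totals ranged from 16139487 to 44145158 counts, and control replicate 1 was the shallowest. Ppp1r3c lay between 22.1 and 24.4 CPM (counts normalized for library size, here with TMM factors) in control and between 4.71 and 5.96 CPM in cKO samples, with no overlap, as the labels imply. The log2 fold change was -2.11 (edgeR FDR 0.000126, SE 0.111). One library stood apart. cKO replicate 3 held 12534 counts of Xist, the RNA of the inactive X chromosome, against 6 to 41 in each of the other 5 samples. The Y-linked genes summed to 220 CPM there and to between 258 and 277 CPM elsewhere. The 10 pre-granulosa (ovarian supporting cell) genes summed to 343 CPM there and to between 103 and 137 CPM elsewhere. These values go against its label as testis tissue alone, and whether XX tissue was part of the pool was not tested. The log2 fold changes of the Hedgehog genes are therefore also given without cKO replicate 3, as are those of other genes that are printed with a log2 fold change and moved by over 1.5 times without it.

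No Hedgehog gene was called different between the groups. By edgeR, 0 of 8 tested genes passed an FDR (adjusted p) of 0.05, where 0.0385% of the 15577 tested genes did (0.0321% higher and 0.00642% lower in cKO). DESeq2 called 0 as well, against 0.779% of the genes to which it gave an adjusted p. At an unadjusted p under 0.05 there was 1 of 8, Smo, against 11.4% of all tested genes (5.56% higher and 5.80% lower). The samples of the groups did not overlap for the same 1 of 8, against 15.6% of all tested genes (8.42% higher and 7.17% lower). Ihh did not reach the filter on low counts and was not tested. Of the 8 log2 fold changes 3 were above 0 and 5 below, with a median of -0.08, beside a median of -0.0034 over all tested genes. The genes induced by the signal (Ptch1, Gli1, Hhip) and the ligands Dhh and Shh were those below 0, and Smo, Gli2 and Gli3 were those above. In the plot of members by sample, the groups overlap in all panels except those of Ihh and Smo.

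**Figure D1:**
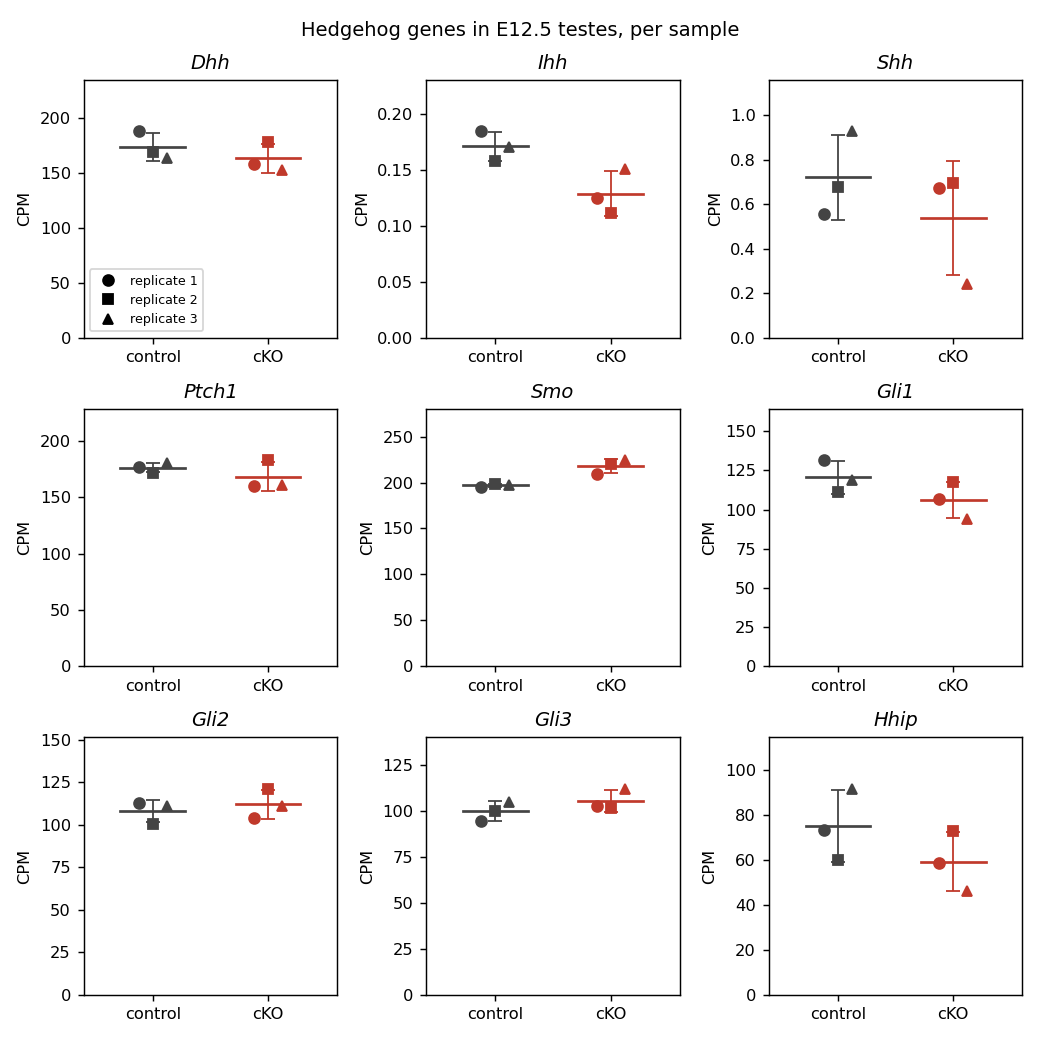
Level of each Hedgehog gene in CPM (y axis from 0) in the 3 control and 3 cKO samples, with marker shapes for replicate numbers and a line with a bar for the mean ± SD. Smo lay at 195 to 198 CPM in control and 209 to 225 CPM in cKO samples, and cKO replicate 3 was the lowest sample for Dhh, Shh, Gli1 and Hhip.

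Dhh, the ligand of the testis, lies on chromosome 15 from 98891155 to 98898540 on the minus strand (mm10). Its level was 188, 169 and 164 CPM in control replicates 1 to 3 and 158, 179 and 153 CPM in cKO replicates 1 to 3. The groups overlapped, since cKO replicate 2 exceeded the controls 2 and 3. The means were 174 ± 12.7 and 163 ± 13.6 CPM (SD, n = 3 each). The log2 fold change was -0.09 (edgeR FDR 0.680, SE 0.0745), and its 95% interval ran from -0.25 to 0.08, or from 0.839-fold to 1.06-fold. It was -0.04 (edgeR FDR 0.931) without cKO replicate 3. The value was -0.16 (edgeR FDR 0.592) when cKO replicate 2 was omitted, and leaving out control replicate 1 or 3 gave -0.03 and -0.13. The exact two-sided permutation p of the CPM values was 0.4, where 0.1 is the smallest that 3 samples against 3 allow.

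The 250 bases before the start of Dhh, Ptch1 and Hhip are shown because they are the promoters of the ligand and of genes that respond to it. They are RefSeq sequences of GRCm38.p6, printed 5′ to 3′ on the gene's strand. They lie at chr15:98898541-98898790 for Dhh, chr13:63565736-63565985 for Ptch1 and chr8:80058009-80058258 for Hhip, each on the minus strand. The windows of Dhh and Hhip adjoin the gene as the count table places it, while that of Ptch1 follows the start in the RefSeq table and lies 215 bases upstream of it. Capitals mark GC boxes (GGGCGG or its complement) in all of them, the GATA motif GATAAG or its complement in Dhh, and CCACCC or its complement in Dhh and Hhip.
Dhh: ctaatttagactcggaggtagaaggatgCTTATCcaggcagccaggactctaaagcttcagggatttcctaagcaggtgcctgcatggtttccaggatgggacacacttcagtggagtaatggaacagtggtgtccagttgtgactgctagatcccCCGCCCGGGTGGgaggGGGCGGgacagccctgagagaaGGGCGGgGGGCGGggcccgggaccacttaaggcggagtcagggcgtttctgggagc
Ptch1: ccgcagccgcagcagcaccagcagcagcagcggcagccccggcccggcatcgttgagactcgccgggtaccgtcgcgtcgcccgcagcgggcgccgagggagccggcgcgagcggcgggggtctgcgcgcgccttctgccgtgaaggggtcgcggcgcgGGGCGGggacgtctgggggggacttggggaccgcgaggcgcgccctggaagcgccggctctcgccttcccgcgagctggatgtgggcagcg
Hhip: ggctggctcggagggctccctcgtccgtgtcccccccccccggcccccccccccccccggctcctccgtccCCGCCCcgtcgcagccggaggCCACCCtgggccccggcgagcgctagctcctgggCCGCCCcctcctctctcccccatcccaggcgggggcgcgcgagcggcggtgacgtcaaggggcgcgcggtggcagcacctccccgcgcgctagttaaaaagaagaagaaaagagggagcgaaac
A window of 300 bases, from 250 before to 50 after the start, was found for 7 of the 9 genes and searched on both strands. GACCACCCA, the consensus of GLI binding sites, was in 0 of these 7 and in 0.253% of all 32851 windows. Its inner bases CCACCC were in 6 of 7 (31.5% of all windows), and a GC box was in 6 of 7 (35.7%). GATAAG was in the window of Dhh alone among the 7 (7.44% of all windows), on the opposite strand, beginning 222 bases before the start. The SOX motif AACAAT was in 0 of 7 (10.7% of all windows), and TATAAA was in 0 of 7 (13.6%). These are matches of letters and were not tested against the expression values.

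The other ligands were at very low levels. Ihh, which acts in cartilage and gut (chromosome 1, 74945315 to 74951672, minus strand), had 3, 7 and 7 counts in the control and 5, 4 and 5 counts in the cKO replicates. In CPM these were 0.158 to 0.185 and 0.111 to 0.151. The CPM values did not overlap, yet the exact Poisson 95% intervals of the counts (counting error alone) ran from 0.619 to 8.77 in control replicate 1 and from 1.09 to 10.2 in cKO replicate 2. A difference in Ihh was not detectable at this depth. Shh, the ligand of neural tube and limb patterning (chromosome 5, 28456840 to 28467101, minus strand), had 9, 30 and 38 counts in control and 27, 25 and 8 counts in cKO replicates 1 to 3. At 0.242 CPM, cKO replicate 3 was below the other 5 samples, which lay between 0.554 and 0.927 CPM. The log2 fold change of Shh was -0.45 (edgeR FDR 0.701, SE 0.413) and moved to -0.11 without cKO replicate 3.

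Ptch1 encodes the ligand receptor, which inhibits SMO until ligand is bound, and is also a target of the signal (chromosome 13, 63511533 to 63565520, minus strand). It was at 177, 172 and 180.1 CPM in control and 160.4, 183 and 161 CPM in cKO replicates 1 to 3. The cKO group thus held both the lowest and the highest sample. The log2 fold change was -0.07 (edgeR FDR 0.700, SE 0.0621), with a 95% interval of 0.866-fold to 1.05-fold. It was -0.04 without cKO replicate 3 (edgeR FDR 0.929). Omitting cKO replicate 1 gave -0.03 and omitting cKO replicate 2 gave -0.13 (edgeR FDR 0.881 and 0.571).

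Smo, which encodes the signal transducer (chromosome 6, 29735497 to 29761366, plus strand), was at 195, 198 and 198 CPM in control and 209, 221 and 225 CPM in cKO replicates 1 to 3. Each cKO sample was above each control sample. The means were 197 ± 1.65 and 218 ± 8.09 CPM (SD, n = 3 each). The log2 fold change of 0.14 (SE 0.0494) had a 95% interval of 1.02-fold to 1.19-fold. The unadjusted edgeR p was 0.0161, but the FDR over all genes was 0.380 and the difference did not pass the test. DESeq2 gave an FDR of 0.279. Without cKO replicate 3 the log2 fold change was 0.12 with an unadjusted edgeR p of 0.0740, and without cKO replicate 2 it was 0.14 with 0.0509.

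Hhip encodes a membrane protein that binds Hedgehog ligands and limits their action, and it is induced by the signal (chromosome 8, 79965851 to 80058008, minus strand). It was at 73.5, 60.1 and 91.7 CPM in control and 58.6, 72.7 and 46.4 CPM in cKO replicates 1 to 3. The samples of either group were widely spread and overlapped. Hhip had the largest difference of the well-expressed members, with a log2 fold change of -0.34 (edgeR FDR 0.488, SE 0.177) and a 95% interval of 0.599-fold to 1.04-fold. It was -0.20 (edgeR FDR 0.784) without cKO replicate 3 and -0.17 (edgeR FDR 0.789) without control replicate 3. The values were -0.49 when control replicate 2 was left out and -0.52 when cKO replicate 2 was.

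Gli1, a transcriptional activator and the most direct readout of the signal, lies on chromosome 10 from 127329882 to 127341579 on the minus strand. It was at 132, 111 and 119 CPM in control and 107, 117 and 94.2 CPM in cKO replicates 1 to 3. cKO replicate 2 lay between the controls and the other cKO samples lay below them. The log2 fold change was -0.18 (edgeR FDR 0.474, SE 0.0895), with a 95% interval of 0.768-fold to 1.01-fold. It was -0.10 (edgeR FDR 0.791) without cKO replicate 3 and -0.11 (edgeR FDR 0.620) without control replicate 1.

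Gli2, the main activator among the GLI factors already present before the signal (chromosome 1, 118834061 to 119053619, minus strand), was at 113, 100.5 and 111 CPM in control and 104, 121 and 111 CPM in cKO replicates 1 to 3. Gli3, which acts mostly as a repressor when ligand is absent (chromosome 13, 15463723 to 15730026, plus strand), was at 94.4, 99.9 and 105 CPM in control and 103, 101 and 112 CPM in cKO replicates 1 to 3. Both groups overlapped for either gene. The log2 fold changes were 0.05 (edgeR FDR 0.811, SE 0.0724) for Gli2 and 0.08 (edgeR FDR 0.666, SE 0.0642) for Gli3. The 95% intervals were 0.927-fold to 1.16-fold and 0.955-fold to 1.17-fold. They were 0.06 for Gli2 and 0.03 for Gli3 without cKO replicate 3. The sign of Gli2 turned without control replicate 2 or cKO replicate 2, at -0.0060 and -0.0064.

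**Figure D2:**
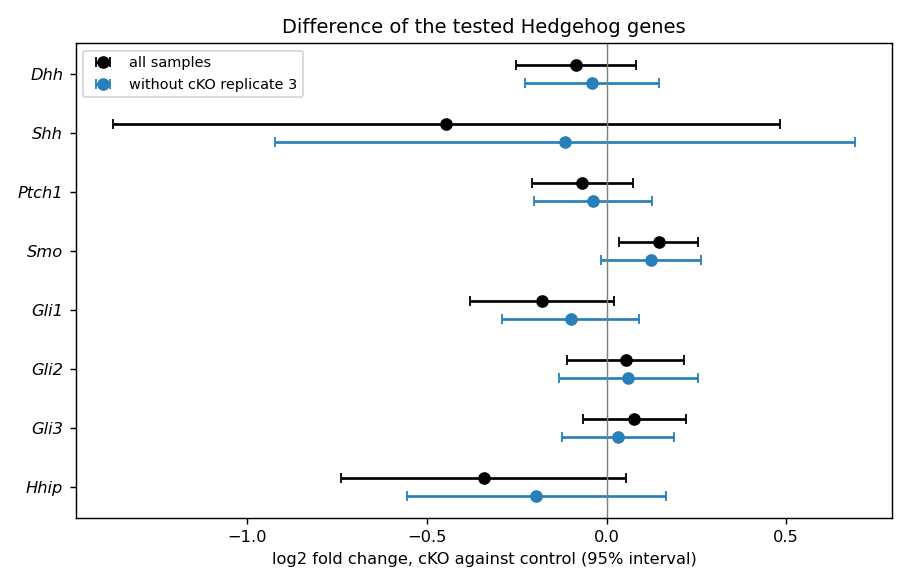
Log2 fold change of cKO against control for the 8 tested Hedgehog genes (x axis), with 95% intervals from edgeR, for all samples (black) and without cKO replicate 3 (blue). With all samples the interval of Smo alone lay above 0, and without cKO replicate 3 every interval crossed 0.

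Levels of different genes were compared per length, as CPM per kilobase of exon. In control testes the order was Dhh (39.5 ± 2.89), Smo (35.1 ± 0.293), Gli1 (24.1 ± 2.07), Gli2 (15.7 ± 0.966), Ptch1 (12.4 ± 0.286), Gli3 (10.4 ± 0.562), Hhip (8.28 ± 1.75), Shh (0.253 ± 0.0667) and Ihh (0.0562 ± 0.0043), each with SD and n = 3. Gli3 and Hhip were the neighbors in this order whose control samples overlapped. Dhh was thus the one ligand with an appreciable level. In cKO testes Smo was at 38.8 ± 1.44 and Dhh at 37.2 ± 3.08 (SD, n = 3 each), and their ranges overlapped, from 37.2 to 39.9 and from 34.8 to 40.7. The order of the other genes by mean was as in control. Exon lengths joined all annotated transcripts of a gene, so long rare isoforms would place a gene low on this scale. Ptch1 had a joined length of 14185 bases, and which of its isoforms were present was not tested.

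**Figure D3:**
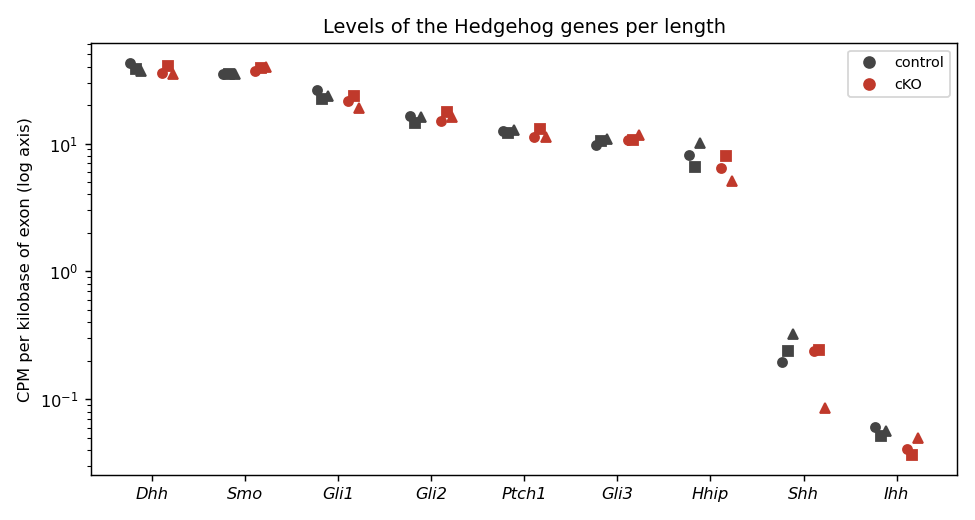
CPM per kilobase of exon (log axis) of the 9 Hedgehog genes in order of their control mean, in 3 control (grey) and 3 cKO (red) samples, with shapes for replicate numbers. Dhh and Smo lead in both groups, and Shh and Ihh lie at 0.326 or below in every sample.

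In whole testes, fewer cells of a type and less RNA per cell cannot be told apart, so the ligand and its readouts were also set against markers of the cells that make and receive it. Dhh was expressed relative to the mean log2 CPM of 16 Sertoli markers. This difference was 0.83, 0.88 and 0.84 in control and 0.69, 0.72 and 0.82 in cKO replicates 1 to 3. The cKO samples lay below the controls without overlap, but cKO replicate 3 was next to control replicate 1. The groups differed by -0.10 on the log2 scale (exact two-sided permutation p 0.1, the smallest possible with n = 3 each). Without cKO replicate 3 they differed by -0.14. In plain CPM the groups did not overlap for 15.6% of all tested genes (7.17% lower in cKO). The share that would separate relative to the Sertoli markers was not computed. Against Sox9 and Amh alone the groups overlapped, with a difference of -0.18 (exact permutation p 0.3, n = 3 each). Wt1 and Gata4 of the Sertoli list are also expressed in other somatic cells of the gonad.

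The readouts were expressed relative to 14 interstitial progenitor markers. Gli1 was at 0.42, 0.24 and 0.18 in control and 0.07, 0.14 and -0.06 in cKO replicates 1 to 3 on this log2 scale. Each cKO sample was below each control sample, with a difference of -0.23 (exact permutation p 0.1, n = 3 each). Ptch1 differed by -0.12 (exact permutation p 0.2, n = 3 each) and Hhip by -0.39 (exact permutation p 0.2, n = 3 each), and the groups overlapped for both. Without cKO replicate 3 the differences were -0.18 for Gli1, -0.12 for Ptch1 and -0.26 for Hhip. None of these 4 relative values could reach a p below 0.1, and with Benjamini-Hochberg adjustment none could be called. The share of all genes that would separate relative to the interstitial progenitor markers was not computed either.

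**Figure D4:**
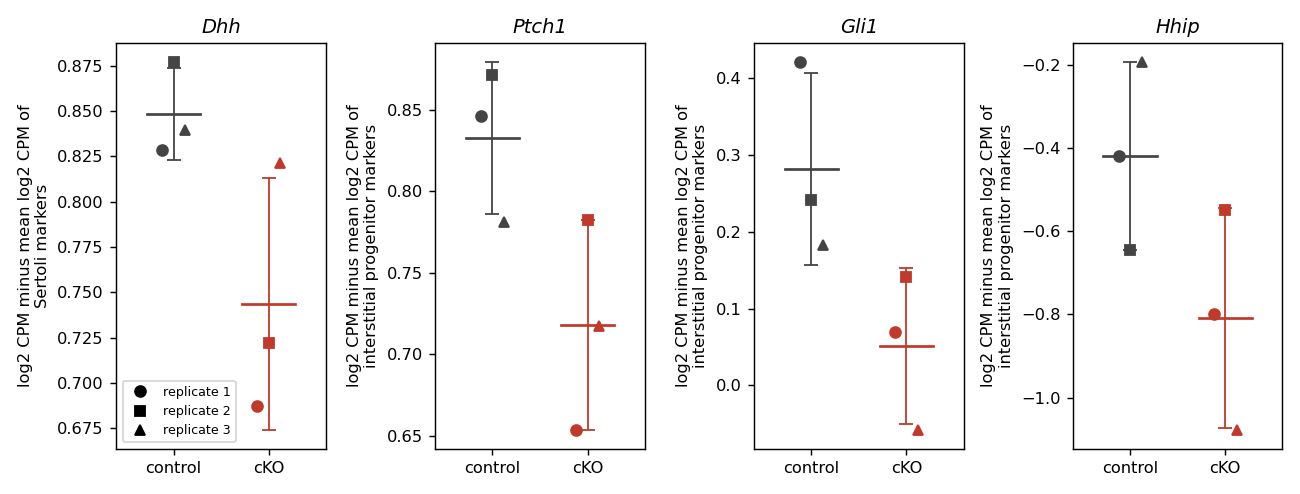
Log2 CPM of Dhh minus the mean of 16 Sertoli markers, and of Ptch1, Gli1 and Hhip minus the mean of 14 interstitial progenitor markers, in 3 control and 3 cKO samples (lines and bars, mean ± SD; axes do not start at 0). The groups do not overlap for Dhh and Gli1 and overlap for Ptch1 and Hhip. The share of all genes that would separate on these scales was not computed, and in plain CPM it was 15.6%.

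Other genes of the pathway were described by list. No gene of these lists was called by edgeR, in either direction. Of 11 tested genes for ligand processing and release, 9 were above 0 and the median log2 fold change was 0.12. Over all tested genes 7651 were above 0 and 7926 below. In this list 3 genes had an unadjusted edgeR p under 0.05, all above 0, against 5.56% of all tested genes in this direction. The lowest p values belonged to Gpc4, Scube2 and Disp1. Gpc4, a glypican of the cell surface, was at 92.7, 95.2 and 94.8 CPM in control and 113, 119 and 129 CPM in cKO replicates 1 to 3. Its groups were well apart, with a log2 fold change of 0.35 (SE 0.0621). It was not called by edgeR (FDR 0.377) but was called by DESeq2 (FDR 0.00163), the single call that DESeq2 made in the pathway lists. Scube2, a secreted protein that helps release lipid-modified ligand, had a log2 fold change of 0.76 (edgeR FDR 0.377, SE 0.256) with overlapping groups. Disp1, which exports the ligand from the producing cell, had 0.18 (edgeR FDR 0.437, SE 0.0809), or 0.11 without cKO replicate 3.

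Among 7 co-receptors and related membrane proteins the median was 0.04, with 6 genes above 0. Of these, 2 had an unadjusted edgeR p under 0.05, against 5.56% of all tested genes in this direction. Gas1, a co-receptor that promotes ligand binding, was at 78.9, 87.4 and 79.8 CPM in control and 85.0, 92.7 and 108 CPM in cKO replicates 1 to 3, which overlapped. Its log2 fold change was 0.21 (edgeR FDR 0.418, SE 0.0895), or 0.11 without cKO replicate 3.

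The intracellular transducers held 22 tested genes with a median of 0.05, and 19 were above 0 (7651 of 15577 over all tested genes). Of the 22 genes, 4 had an unadjusted p under 0.05, all above 0, against 5.56% of all tested genes in this direction. Those of lowest p were the kinase gene Dyrk2 with a log2 fold change of 0.30, Prkaca, the catalytic subunit of the kinase that primes GLI proteins for processing, with 0.16, and Numb with 0.20 (edgeR FDR 0.377, 0.377 and 0.404). Numb had 0.11 without cKO replicate 3. Sufu, which holds GLI proteins in the cytoplasm, had a log2 fold change of 0.06 and is named here with its value already known. The 16 genes of primary cilium transport had a median of 0.04, with 12 above 0, a range of -0.08 to 0.19 and 0 genes at an unadjusted p under 0.05. The lowest p values were those of Tulp3 (0.19), Inpp5e (0.11) and Tctn1 (0.08), with an edgeR FDR of 0.440 or more. Tulp3 had 0.11 and the list median was 0.01 without cKO replicate 3.

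Of 21 other genes named as Hedgehog targets in various tissues, 20 were tested. They had a median log2 fold change of 0.11, with 14 genes above and 6 below 0, and 4 above 0 at an unadjusted p under 0.05, against 5.56% of all tested genes in this direction. The cyclin gene Ccnd2 was at 286, 274 and 299 CPM in control and 331, 335 and 324 CPM in cKO replicates 1 to 3. Its groups did not overlap, and its log2 fold change of 0.20 (SE 0.0518) had an edgeR FDR of 0.377. The forkhead gene Foxc1 had 0.27 (edgeR FDR 0.377, SE 0.0898), and Foxd1, at 1.24 CPM or less in every sample, had 1.39 (edgeR FDR 0.389, SE 0.522). Foxd1 had 41 counts in cKO replicate 3 and 3 to 19 in the other samples, and without cKO replicate 3 its log2 fold change was 0.72. The log2 fold changes of Ptch1, Gli1 and Hhip were all below 0. Many of these genes also have inputs other than Hedgehog.

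**Figure D5:**
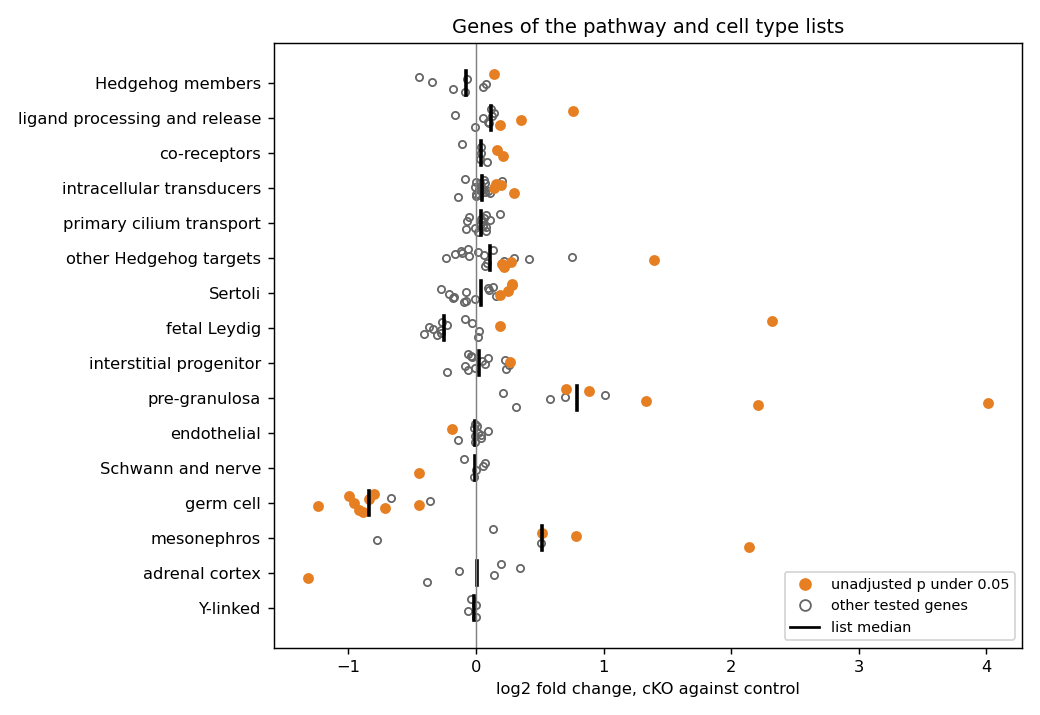
Log2 fold change of cKO against control (x axis) of each tested gene in the pathway and cell type lists, with filled orange points for an unadjusted p under 0.05 and a bar at the list median. The medians of the Hedgehog members and the pathway lists lie near 0, with single genes up to 0.76 (ligand processing and release) and 1.39 (other Hedgehog targets). The germ cell list lies below 0 and the pre-granulosa list above 0.

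Cell types that make, receive or surround the signal were examined by their markers. The Sertoli list of 16 genes summed to 2717 to 3255 CPM in control and 2840 to 3386 CPM in cKO samples, with a median log2 fold change of 0.04 (0.11 without cKO replicate 3) and 8 genes on either side of 0. The list held 4 genes at an unadjusted edgeR p under 0.05, all above 0, against 5.56% of all tested genes in this direction. Its lowest p values were those of Wt1 (0.28, edgeR FDR 0.377; DESeq2 FDR 0.0459) and Sox9 (0.28, edgeR FDR 0.377). Amh, the hormone of Sertoli cells, was at 894, 631 and 771 CPM in control and 665, 920.1 and 588 CPM in cKO replicates 1 to 3. cKO replicate 3 was the lowest in Amh as it was in Dhh. The interstitial progenitor list of 14 genes summed to 3384 to 4076 CPM in control and 3423 to 4130 CPM in cKO samples, with a median of 0.02. Its sentinels Nr2f2 and Pdgfra had log2 fold changes of 0.09 and -0.03, the latter -0.0047 without cKO replicate 3. Nr2f1, among the genes of lowest p in this list, had 0.23 (edgeR FDR 0.476), or 0.11 without cKO replicate 3.

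Fetal Leydig cells, the steroid-producing cells whose formation depends on Dhh, had a list median of -0.25, with 10 of 14 genes below 0 and 0 called. The 2 genes at an unadjusted edgeR p under 0.05 were above 0, against 5.56% of all tested genes in this direction. They were Pcsk6 (0.19) and Thbs2 (2.32, or -0.11 without cKO replicate 1). Cyp11a1, the enzyme that begins steroid synthesis, was at 31.0, 55.7 and 68.8 CPM in control and 46.4, 55.4 and 24.96 CPM in cKO replicates 1 to 3. Cyp17a1 was at 63.0, 97.0 and 135 CPM in control and 78.4, 103 and 42.2 CPM in cKO replicates 1 to 3. For both genes cKO replicate 3 was the lowest sample and control replicate 1 the next. Hsd3b1 had a log2 fold change of -0.27, Cyp11a1 -0.31 and Cyp17a1 -0.41, with an edgeR FDR of 0.645 or more. The list sum was 861 to 1062 CPM in control and 749.7 to 1058 CPM in cKO samples. Without cKO replicate 3 the list median was -0.02, with -0.01 for Hsd3b1, -0.05 for Cyp11a1 and -0.12 for Cyp17a1.

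Markers of germ cells and of pre-granulosa cells differed by larger amounts than the Hedgehog genes. The 12 germ cell genes summed to 517 to 856 CPM in control and 266 to 551 CPM in cKO samples, with a median of -0.84, 11 of 11 tested genes below 0, 9 of them at an unadjusted p under 0.05 (5.80% of all tested genes in this direction), and 0 called by edgeR. Dppa3 (-1.24) and Mael (-0.95) had the lowest p values there. DESeq2 called 2 genes of the list lower, Mael (FDR 0.0135) and Dnd1 (FDR 0.0429), the latter named with its value already known. The 10 pre-granulosa genes had a median of 0.79 and summed to 130 to 343 CPM in cKO samples. Of these genes 5 had an unadjusted edgeR p under 0.05, all above 0, against 5.56% of all tested genes in this direction. Their lowest p values were those of Runx1 (0.89) and Fst (4.02), and Foxl2 (2.21) reached 7.56 CPM in cKO replicate 3 while the other samples had 1.22 CPM at most. Without cKO replicate 3 the medians were -0.85 for the germ cell and 0.16 for the pre-granulosa list, with 0.50 for Fst and 0.55 for Foxl2. The part of these cells in the Hedgehog values was not tested.

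The lists of further cell types and tissues, and the Y-linked list, showed no call. Endothelial genes, of cells that can make Dhh, had a median of -0.0042 and a lowest p for Pecam1 (-0.19) and Kdr (0.09). Schwann and nerve genes, of another cell type that makes Dhh, had a median of -0.0076 and a lowest p for Erbb3 (-0.44) and Sox10 (0.07), and summed to 87.1 to 100.3 CPM in control and 76.4 to 87.6 CPM in cKO samples. At an unadjusted edgeR p under 0.05, the endothelial, Schwann and nerve, and adrenal cortex lists each had 1 gene, below 0 (5.80% of all tested genes in this direction). Mesonephros genes had a median of 0.52 with Calb1 (2.14) and Pax8 (0.52) in the lead. Of the 6 tested, 3 had an unadjusted edgeR p under 0.05, all above 0, against 5.56% of all tested genes in this direction. Calb1 reached 11.2 CPM in cKO replicate 3, while its level elsewhere was 0.708 to 2.77 CPM, and without that sample Calb1 had 1.08 and Pax8 0.32. Adrenal cortex genes, of a tissue that makes Shh, had a median of 0.0045, with Cyp21a1 (-1.32) at 0.543 CPM or less in every sample and Nr0b1 (0.34, or 0.20 without cKO replicate 3). The Y-linked list had a median of -0.02, or 0.10 without cKO replicate 3. Without that sample the median was 0.02 for the endothelial and 0.05 for the Schwann and nerve list.

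The genes whose profile over the 6 samples was most like that of a Hedgehog gene were sought by the root mean square difference of centered log2 CPM. For Dhh these were Adamts10 (0.0177), Frem1 (0.0198) and Fbxw17 (0.0277). For Ptch1 they were Vcan (0.0254), Hmcn1 (0.0283) and Gmppa (0.0284), and for Gli1 they were Ifi35 (0.0311), Copz2 (0.0312) and Zfp934 (0.0322). Among the cKO samples, replicate 2 was the highest in Dhh, Ptch1, Gli1, Gli2 and Hhip, and also in Amh and Cyp17a1. Among the controls the highest was replicate 1 for Dhh and Gli1 and replicate 3 for Ptch1 and Hhip.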

How the data were processed

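Whole testes at E12.5 were profiled in 3 control and 3 cKO samples, grouped by their titles. The authors prepared stranded mRNA libraries, aligned read pairs to mm10 with STAR (2.5, per the submitters' processing notes) and counted them per RefSeq gene, by strand, with featureCounts of Subread (1.5.0-p1). The deposited values were raw counts, without normalization. Of per-sample columns, 0 were left unused, and 2 symbols stood on more than 1 row. The 9 members and all lists were chosen with earlier results of these data known.

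The main test was edgeR (4.0.16; R 4.3.3), with filterByExpr (minimum count 10), TMM and the quasi-likelihood F-test without covariates, over 15577 genes, with Benjamini-Hochberg adjustment. The SE came from the F statistic. Log2 CPM used a prior count of 2. Exon lengths came from GENCODE M21 (GRCm38, the build of the files), whereas counting used RefSeq models. DESeq2 (1.42.0), the authors' tool, limma-voom (limma 3.58.1), RLE factors, other filters, a replicate block and leaving out each sample were alternatives. Relative levels were also computed with RLE factors, 2 markers per cell type and a prior count of 0.5.

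Named were Ppp1r3c, the 9 members, the 3 genes of lowest p per pathway list and 2 per cell type list, sentinel markers fixed by name, and the 3 nearest profiles of Dhh, Ptch1 and Gli1. Other genes carry a remark. A few genes that this rule names are not reported here. Same-numbered samples deviated from their group means with correlations of -0.20, -0.27 and -0.13, which gave no sign that the numbers pair them. Whether any of the samples shared a litter was not tested. Libraries of a group differed beyond sampling noise in every pair (chi-square per degree of freedom 8.74 or more). On simulated data for cKO against control (15577 genes), edgeR recovered 76% of log2 changes of 1 and 97% of log2 changes of 2, with 7.98% of its calls false. Smaller changes were not simulated. The tested Hedgehog genes had log2 fold changes of -0.45 to 0.14, so recovery at their size is not known.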

Additional observations from a re-analysis of the deposited data

How the results depend on the processing

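The count of Hedgehog genes called was 0 in all 12 alternatives. The count at an unadjusted p under 0.05 was 1 (Smo), against 11.4% of all tested genes in either direction in the main test. It was 0 with the replicate block, where the share over all tested genes was 6.32%. When single samples were dropped it ranged from 0 to 3. Gli1, Hhip and Smo passed once control replicate 2 was omitted, against 7% of all tested genes. Dropping cKO replicate 2 left Gli1 and Hhip, against 8.8%. No member passed when cKO replicate 3 was dropped, against 7.83%. The numbers in the titles gave no sign of pairing, and with the replicate block edgeR called 2 genes higher and 1 lower over all genes. DESeq2 called 57 higher and 54 lower, the stricter filter (CPM of at least 1 in 3 samples) 3 higher, and limma-voom and no filter each 2 lower. Leaving out single samples gave 1 to 5 higher and 1 to 3 lower. The causes were not tested. The log2 fold changes of Dhh, Shh, Ptch1, Smo, Gli1, Gli3 and Hhip kept their sign in every alternative that gave a value. Shh had none under the stricter filter. Gli2 ranged from -0.0064 to 0.11 without single samples. Of other named genes, leaving out single samples turned the sign of Thbs2 (-0.11 to 2.82), Sox10 (-0.065 to 0.18), Amh (-0.29 to 0.052), Pdgfra (-0.13 to 0.055) and Xist (-0.48 to 7.90). The relative values of Dhh, Ptch1, Gli1 and Hhip stayed below 0 in all 9 alternatives each.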

Other observations

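Thbs2, a gene of the fetal Leydig list, reached 87.1 CPM in cKO replicate 1, while the remaining samples had 5.23 to 8.92 CPM. Its log2 fold change was 2.32 with cKO replicate 1 and -0.11 without it. The other members of that list did not stand out in this library, where Cyp11a1 was at 46.4 CPM and Hsd3b1 at 99.6 CPM. The gene of lowest p in the list was Pcsk6, at 210.3, 192 and 180 CPM in control replicates 1 to 3. In cKO replicates 1 to 3 Pcsk6 was at 217, 227 and 219.8 CPM. It differed by 0.19 on the log2 scale (edgeR FDR 0.377, SE 0.0634).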
